A study of Mus musculus with 27 samples.

Results

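Metallothioneins and the transporters of zinc and copper were followed in RAW264.7 cells, a mouse macrophage line, through 9 genes chosen by symbol from the 55483 in the table: Mt1, Mt2, Mtf1, Slc30a1, Slc39a14, Slc39a10, Slc31a1, Slc31a2 and Atp7a. The cells had spent 6 h in 1 of 3 conditions: the solvent DMSO alone, LPS at 1 µg/ml with DMSO, or LPS with TM7nox, a tanshinone mimic that the protocols give at 10 µM. LPS is a lipopolysaccharide of bacterial outer membranes that activates macrophages, and tanshinone mimics were made to hinder the RNA binding of HuR, a protein that stabilises many mRNAs with AU-rich elements. Each condition gave 4 libraries of total RNA, 4 of RNA recovered with an anti-HuR antibody (ribonucleoprotein immunoprecipitation, RIP) and 1 of RNA recovered with control IgG, and no condition held TM7nox without LPS. The cells were 1 established line, about 30 M per sample, and the labels do not say whether replicates were separate cultures, so p-values measure the spread between these samples.

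Metallothioneins are small cysteine-rich proteins that bind zinc and copper in the cytosol. The transcription factor Mtf1 senses free zinc and turns on the metallothionein genes and the zinc exporter gene Slc30a1 through short promoter motifs called metal response elements. In macrophages, activation by bacterial products is known to change zinc and copper handling: ZIP proteins (Slc39 genes) bring zinc into the cytosol, ZnT proteins (Slc30 genes) carry it out, Slc31a1 brings copper in, and Atp7a pumps copper into the secretory pathway and, in macrophages, towards phagosomes.

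The promoters of Mt1, Mt2 and Slc30a1 are shown because these are textbook Mtf1 targets and because Mt1 and Slc30a1 moved in opposite directions under TM7nox. Each run of 300 bases holds 250 before and 50 after the start site of RefSeq (GRCm38.p6), 5′ to 3′ on the gene's strand. The capitals mark the core of the metal response element, TGCACNC or TGCGCNC, on either strand. An exact match placed the 3 runs on the plus strand of GRCm39 at chr8:94905467-94905766 for Mt1, chr8:94898996-94899295 for Mt2 and chr1:191638643-191638942 for Slc30a1.
Mt1: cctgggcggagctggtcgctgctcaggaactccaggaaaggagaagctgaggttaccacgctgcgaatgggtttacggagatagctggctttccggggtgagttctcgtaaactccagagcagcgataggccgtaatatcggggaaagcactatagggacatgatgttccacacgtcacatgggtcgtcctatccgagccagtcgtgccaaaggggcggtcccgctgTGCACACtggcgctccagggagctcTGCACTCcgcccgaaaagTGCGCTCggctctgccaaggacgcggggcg
Mt2: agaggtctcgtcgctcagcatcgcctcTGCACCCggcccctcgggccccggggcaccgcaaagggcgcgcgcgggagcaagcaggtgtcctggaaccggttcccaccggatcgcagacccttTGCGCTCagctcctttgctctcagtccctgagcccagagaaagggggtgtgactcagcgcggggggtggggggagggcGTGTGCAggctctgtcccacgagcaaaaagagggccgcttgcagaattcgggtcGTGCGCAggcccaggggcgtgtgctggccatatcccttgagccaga
Slc30a1: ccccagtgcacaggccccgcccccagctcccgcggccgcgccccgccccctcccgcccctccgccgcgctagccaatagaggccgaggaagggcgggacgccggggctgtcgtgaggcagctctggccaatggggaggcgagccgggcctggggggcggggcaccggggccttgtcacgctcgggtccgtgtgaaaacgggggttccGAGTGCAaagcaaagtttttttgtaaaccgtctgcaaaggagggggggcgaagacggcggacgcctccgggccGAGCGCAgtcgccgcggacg
Mt2 held 4 cores in this window, Mt1 held 3 and Slc30a1 held 2. Of 32851 promoters of the same length, 25.7% held at least 1 core, 7.1% at least 2, 1.97% at least 3 and 0.52% at least 4. Atp7a held 2 cores and Slc31a2 held 1, while none was in the windows of Mtf1, Slc31a1 and Slc39a10. These matches describe the letters only, in windows set by the RefSeq start sites. The Mt2 run lies inside the bounds of the gene in GENCODE M39 (chr8:94898819-94900207), and start sites outside RefSeq were not searched. Of the 9 genes, 8 matched a RefSeq promoter, and Slc39a14 is named only.

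HuR is known to bind stretches rich in A and U in 3′ untranslated regions (UTRs), where the pentamer AUUUA is a common element. A window of 30 bases is therefore shown for the 4 genes whose RNA was called higher in anti-HuR RIP than in total RNA in all 3 treatments by the scaling used here. Each is the window of the 3′ UTR with the most AUUUA and then the most U, from the Ensembl canonical transcript on GRCm39, with AUUUA in capitals. Positions count from the first base after the stop codon: 1978 to 2007 for Slc30a1, 2496 to 2525 for Slc39a10, 1398 to 1427 for Slc31a1 and 2604 to 2633 for Atp7a.
Slc30a1: uugagguuuuagagaauuAUUUAuuucuuu
Slc39a10: uuaaguuuAUUUAagccaaagcaaaAUUUA
Slc31a1: cuuuaucAUUUAcggggAUUUAcauagauu
Atp7a: auuauuuuucauAUUUAuuuuacuuauuuu
The windows of Slc39a10 and Slc31a1 held 2 pentamers each, and those of Slc30a1 and Atp7a held 1. They were not tested as binding sites.

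The total RNA libraries held 2.73 to 28.3 M counts, the RIP libraries 19.8 to 41.4 M and the IgG libraries 8.87 to 24.5 M. Replicate 1 of DMSO total RNA, at 2.73 M, stood apart from the other RNA libraries. All 8 macrophage markers averaged above 1 CPM (counts per M counts, scaled alike over all libraries), and 6 of them were called in LPS against DMSO (5 higher and Csf1r lower) and 4 in LPS+TM7nox against LPS (Fcgr1, Itgam, Cd14 and Spi1, all lower), where 42.0% and 13.8% of all genes tested were called. All 10 markers of T, B, epithelial, fibroblast and endothelial cells averaged below 1 CPM. Their summed level was 0.322 to 1.70 CPM in DMSO libraries, 0.718 to 1.88 with LPS and 0.722 to 1.2 with TM7nox added, Epcam and Krt8 were at 0 counts in all 3, and the endothelial marker Cdh5 alone was called, higher with LPS on 12 against 89 counts. In bulk RNA, fewer cells of a kind and less RNA per cell cannot be told apart. A gene was called where its adjusted p from edgeR's quasi-likelihood test was under 0.05, and every adjusted p below is from that test unless another is named.

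LPS raised the RNA of 7 of the 9 genes and lowered none by this call: Slc31a2, Slc39a14, Mt2, Mt1, Mtf1, Slc31a1 and Atp7a were higher. Over all 12369 genes tested, 5190 were called (42.0%), 2500 higher and 2690 lower. The median log2 fold change of the 9 genes was 1.19, beside -0.04 for all genes. Scaling by library totals, with no TMM factor, moved the median of all genes to -0.32 and the split to 1629 higher and 4253 lower, and called 6 of the 9 higher and Slc39a10 lower. With the replicate number as a term (the replicate block), Slc30a1 (-0.78, adjusted p = 0.000608) and Slc39a10 (-0.28, adjusted p = 0.0341) were called lower. That fit called 6481 of the 12369 genes, 3121 higher and 3360 lower. Adding TM7nox to LPS changed 4 of the 9 by the call: Mt1, Slc39a14 and Slc39a10 were lower and Slc30a1 was higher. There, 1704 of the 12369 genes were called (13.8%), 912 higher and 792 lower, and the replicate block called 3091. The median of the 9 genes was -0.06, beside 0.0 for all genes. LPS+TM7nox against DMSO called 8 of the 9, 7 higher and Slc39a10 lower, beside 5850 genes in all (47.3%), or 5 higher and Slc39a10 lower with library totals (median of all genes -0.33). The comparisons share libraries, so their values are set side by side without a test of likeness. Coordinates below are GENCODE M39 on GRCm39.

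**Figure D1:**
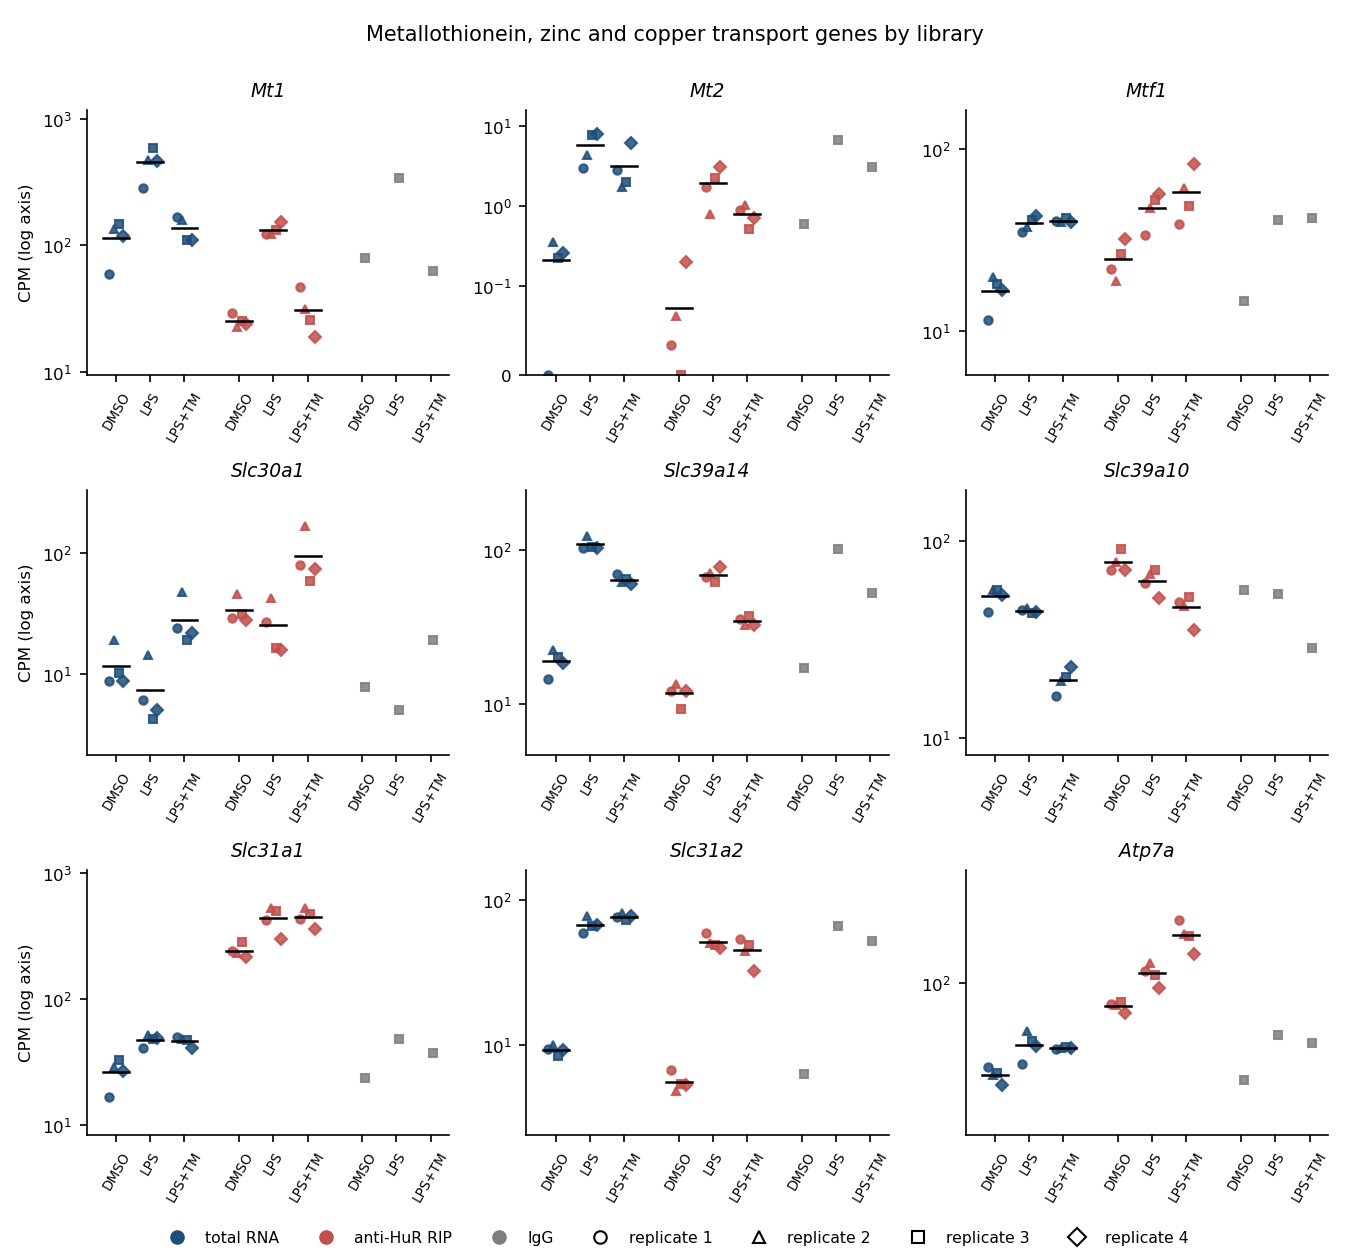
Level of each of the 9 genes in CPM (log axis, for Mt2 with a linear stretch at the bottom to include 0) in every library, for total RNA, anti-HuR RIP and IgG under DMSO, LPS and LPS+TM7nox; symbols mark the replicate number and bars the group mean. Mt1 RNA stood at 287 to 594 CPM in LPS and at 110 to 168 in LPS+TM7nox, while Slc30a1 stood at 4.23 to 14.3 and 19 to 47.9.

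Mt1 (ENSMUSG00000031765, chr8:94905710-94906955) encodes metallothionein 1, a major inducible metallothionein. Its total RNA lay at 59.4, 134, 149 and 119 CPM in DMSO, at 287, 478, 594 and 469 in LPS, and at 168, 159, 111 and 110 in LPS+TM7nox (replicates 1 to 4). The 4 LPS libraries were all above the 8 others, and the LPS+TM7nox libraries overlapped those of DMSO. LPS raised Mt1 3.87-fold (log2 1.95, SE 0.267, adjusted p = 4.66e-05), from 116 ± 39.3 to 457 ± 127 CPM (SD, n = 4 each). With TM7nox it was 3.32-fold lower than with LPS alone (log2 -1.73, SE 0.265, adjusted p = 0.000682), at 137 ± 30.8 CPM (SD, n = 4). Mt1 was higher in LPS in 4 of 4 same-numbered pairs and lower with TM7nox in 4 of 4, with ratios of 0.187 to 0.585. LPS+TM7nox and DMSO did not differ by the call (log2 0.22, adjusted p = 0.515), and the value turned to -0.25 in replicates 3 and 4 alone and to -0.09 with library totals. Replicates 1 and 2 alone gave -1.23 for TM7nox, with an adjusted p of 0.157 in a range of 9.17e-24 to 0.157 over 16 alternatives.

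Mt2 (ENSMUSG00000031762, chr8:94898819-94900207) encodes metallothionein 2 and lies 5502 bases from Mt1, with Gm45774 on the opposite strand. It was far less abundant than Mt1, with 29, 690 and 315 counts over the 4 libraries of DMSO, LPS and LPS+TM7nox, so that Mt1 had 475, 78.1 and 44.0 times as many counts. Per library Mt2 stood at 0, 0.36, 0.225 and 0.263 CPM in DMSO, at 2.99, 4.38, 7.80 and 8.02 in LPS, and at 2.87, 1.76, 1.99 and 6.16 in LPS+TM7nox. Every LPS library was above every DMSO library, whereas LPS and LPS+TM7nox overlapped through replicate 4 of the latter. LPS raised it 21.3-fold (log2 4.41, SE 0.544, adjusted p = 1.8e-05). The change with TM7nox was -0.86 on the log2 scale (SE 0.423, adjusted p = 0.218) and did not pass. Without replicate 4 of LPS+TM7nox it was -1.39 (adjusted p = 0.0465), in a range of 0.0465 to 0.83 over 16 alternatives. Against DMSO, LPS+TM7nox kept Mt2 11.7-fold higher (log2 3.55, adjusted p = 9.27e-05), in 4 of 4 pairs. The 2 transcripts were 65.4% identical over their alignment and shared runs of at most 20 bases, and how reads matching both were counted is not given.

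The zinc sensor Mtf1 (ENSMUSG00000028890, chr4:124695897-124743593) overlaps Gm56097 on its own strand and 1110065P20Rik on the other. Its RNA stood at 11.4, 19.7, 18.2 and 16.8 CPM in DMSO, at 34.9, 37.3, 40.8 and 43.1 in LPS, and at 40.2, 39.5, 41.9 and 39.9 in LPS+TM7nox. The DMSO libraries were all below the others, and both LPS treatments overlapped. LPS raised it 2.28-fold (log2 1.19, SE 0.133, adjusted p = 7.32e-06). The difference with TM7nox was 0.05 (SE 0.130, adjusted p = 0.852), and it turned to -0.01 in replicates 3 and 4 alone.

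Slc30a1 (ENSMUSG00000037434, chr1:191638808-191645361, overlapped by 1700034H15Rik on the other strand) encodes ZnT1, the zinc exporter of the plasma membrane. Its RNA stood at 8.69, 19.1, 10.2 and 8.68 CPM in DMSO, at 6.07, 14.3, 4.23 and 5.02 in LPS, and at 23.9, 47.9, 19 and 21.8 in LPS+TM7nox. Replicate 2 was the highest in each group, also in RIP, and every LPS+TM7nox library was above every LPS library. TM7nox with LPS raised Slc30a1 3.81-fold over LPS (log2 1.93, SE 0.407, adjusted p = 0.00589). It was higher in 4 of 4 same-numbered pairs, by ratios of 3.35 to 4.49, and its log2 fold change was higher than that of 99.2% of the genes tested. Replicates 1 and 2 alone gave 1.82 with an adjusted p of 0.13, in a range of 8.26e-20 to 0.13 over 16 alternatives.

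For LPS against DMSO the Slc30a1 difference was -0.70 on the log2 scale (SE 0.405, adjusted p = 0.188), which did not pass, and the groups overlapped. It was lower in 4 of 4 same-numbered pairs, with ratios of 0.415 to 0.749, and the fit with the replicate block gave -0.78 (adjusted p = 0.000608). Without replicate 2 of LPS it was -1.23 (adjusted p = 0.0157). Over 16 alternatives the adjusted p ran from 0.000214 to 0.632. LPS+TM7nox stood 2.34-fold above DMSO (log2 1.23, SE 0.401, adjusted p = 0.0214), in 4 of 4 pairs. That call was lost without replicate 2 of LPS+TM7nox (0.84, adjusted p = 0.0918), without replicate 3 of DMSO (1.16, adjusted p = 0.0571) and without replicate 4 of DMSO (1.09, adjusted p = 0.0626), and with library totals (0.92, adjusted p = 0.0649), in a range of 1e-09 to 0.098.

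**Figure D2:**
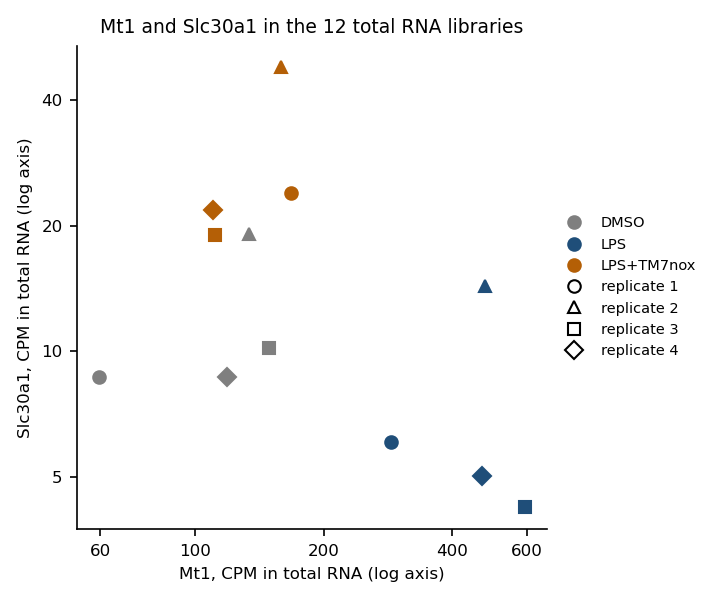
Slc30a1 against Mt1 RNA, both in CPM on log axes, in the 12 total RNA libraries, with colours for the treatment. The LPS libraries lie at high Mt1 and low Slc30a1, and the LPS+TM7nox libraries lie at lower Mt1 and higher Slc30a1.

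Across the 12 RNA libraries the log2 levels of Mt1 and Slc30a1 had a Pearson r of -0.49, and those of Mt1 and Mt2 one of 0.723. These points share treatments and replicate numbers, so the values are descriptions. In the plot of Slc30a1 against Mt1 the LPS libraries lay apart, at high Mt1. DMSO lay at 59.4 to 149 CPM of Mt1 and 8.68 to 19.1 of Slc30a1 and met the LPS+TM7nox libraries: replicate 2 of DMSO (134 and 19.1 CPM) was within the ranges of LPS+TM7nox for both genes.

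Of the zinc importers, Slc39a14 rose with LPS, and both Slc39a14 and Slc39a10 were lower with TM7nox. Slc39a14 (ENSMUSG00000022094, chr14:70540678-70588914) encodes ZIP14, an importer of zinc and iron that inflammation is known to raise. The RNA libraries held 14.4, 22.4, 20.3 and 18.3 CPM in DMSO, 103, 123, 105 and 103 in LPS, and 69.4, 62.0, 64.4 and 60 in LPS+TM7nox. The 3 groups did not overlap, with LPS+TM7nox between the others. LPS raised it 5.60-fold (log2 2.48, SE 0.127, adjusted p = 4.61e-09). With TM7nox it was 1.70-fold lower than with LPS (log2 -0.76, SE 0.120, adjusted p = 0.000792), in 4 of 4 pairs, and 3.30-fold above DMSO (log2 1.72, adjusted p = 1.08e-07). Replicates 1 and 2 alone gave -0.79 for TM7nox with an adjusted p of 0.157, in a range of 8.25e-09 to 0.157.

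Slc39a10 (ENSMUSG00000025986, chr1:46845872-46964964) encodes ZIP10, a zinc importer of the plasma membrane. It overlaps Gm28151, Gm28527 and Gm37393 on its strand and Dnah7c on the other. Its RNA stood at 43.5, 56.6, 56.8 and 53.1 CPM in DMSO, at 44.7, 45.5, 43.0 and 43.4 in LPS, and at 16.3, 19.5, 20.4 and 22.9 in LPS+TM7nox. DMSO and LPS overlapped through replicate 1 of DMSO, and all LPS+TM7nox libraries were below the 8 others. TM7nox with LPS lowered it 2.23-fold against LPS (log2 -1.16, SE 0.119, adjusted p = 3.55e-05) and 2.71-fold against DMSO (log2 -1.44, SE 0.120, adjusted p = 3.8e-07). The LPS against DMSO value was -0.28 (SE 0.118, adjusted p = 0.0682) and did not pass. With the replicate block it was -0.28 (adjusted p = 0.0341) and without replicate 1 of DMSO -0.34 (adjusted p = 0.027), and library totals gave -0.57 (adjusted p = 0.00134), in a range of 0.00134 to 0.761 over 16 alternatives.

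The 3 copper genes among the 9, Slc31a2, Slc31a1 and Atp7a, rose with LPS and showed no called change in RNA with TM7nox. Slc31a2 (ENSMUSG00000066152, chr4:62180799-62220050) encodes CTR2, a relative of the copper importer CTR1 found mostly on internal membranes. It overlaps Gm23148 and Gm69643 on its strand and Fkbp15 and Gm69617 on the other. In total RNA it stood at 9.33, 9.99, 8.43 and 9.27 CPM in DMSO, at 58.8, 77.0, 66.2 and 67.1 in LPS, and at 75.9, 80.4, 72.3 and 77.1 in LPS+TM7nox. The DMSO libraries were far below the others, which overlapped. The rise with LPS was 7.13-fold (log2 2.83, SE 0.115, adjusted p = 1.09e-09), and the difference with TM7nox was 0.19 (SE 0.105, adjusted p = 0.287). Against DMSO, LPS+TM7nox stood 8.13-fold higher (log2 3.02, adjusted p = 1.46e-09).

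Slc31a1 (ENSMUSG00000066150, chr4:62278085-62320861, overlapped by Cdc26 and Fkbp15 on the other strand) encodes CTR1, the main copper importer, and lies 58034 bases from Slc31a2. Total RNA held it at 16.7, 29.2, 33.1 and 26.9 CPM in DMSO, at 41.3, 51.9, 47.9 and 49.0 in LPS, and at 50, 48.2, 47.8 and 40.8 in LPS+TM7nox. LPS and LPS+TM7nox overlapped, and both were above DMSO. LPS raised it 1.74-fold (log2 0.80, SE 0.157, adjusted p = 0.000945). The TM7nox difference of -0.02 (SE 0.155, adjusted p = 0.952) changed sign in 3 of the alternatives.

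Atp7a (ENSMUSG00000033792, chrX:105070845-105171766) encodes the copper-exporting ATPase. The DMSO libraries held 31.8, 28.2, 29.1 and 24.8 CPM of its RNA, those of LPS 32.8, 51.7, 45.3 and 42.3, and those of LPS+TM7nox 40.4, 41.1, 41.8 and 41.1. Replicate 1 of LPS was the lowest of its group and stood just above DMSO. LPS raised it 1.48-fold (log2 0.57, SE 0.137, adjusted p = 0.00415), in 4 of 4 pairs with ratios of 1.03 to 1.83. In replicates 1 and 2 alone the LPS value was 0.51 (adjusted p = 0.268) and with library totals 0.27 (adjusted p = 0.159), in a range of 0.000211 to 0.268. The TM7nox difference was -0.06 (SE 0.136, adjusted p = 0.827).

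**Figure D3:**
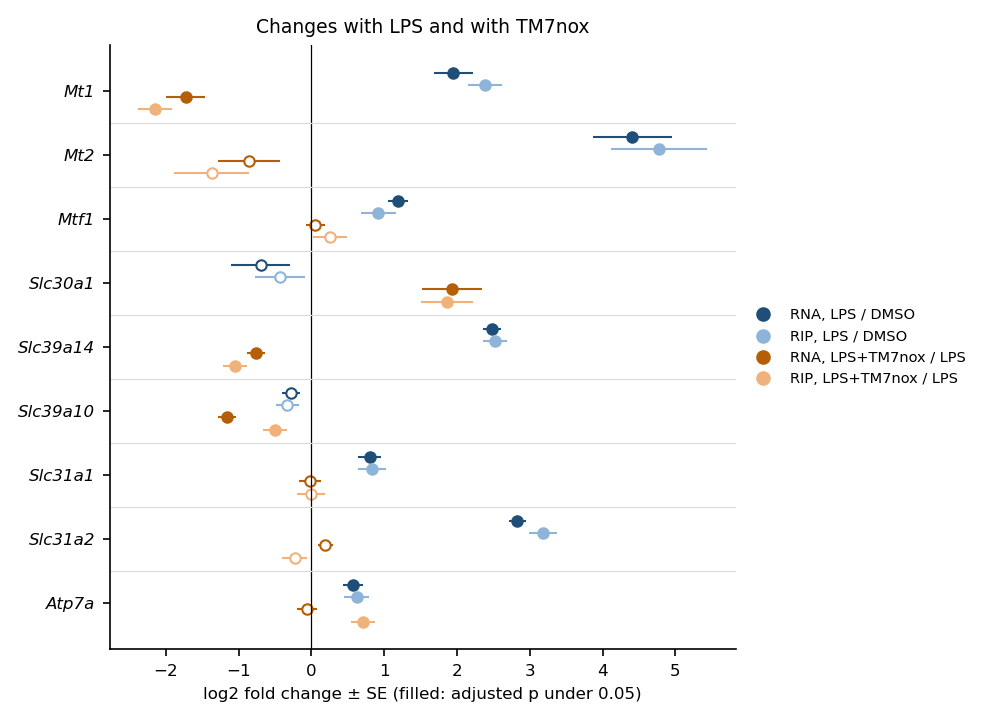
Log2 fold change (points) with its standard error (bars) for LPS against DMSO and LPS+TM7nox against LPS in total RNA and in anti-HuR RIP, from edgeR's quasi-likelihood fits of 12 libraries each; filled points have an adjusted p under 0.05. Mt1 and Slc39a14 rose with LPS and were lower with TM7nox in both assays, Slc30a1 rose with TM7nox in both, and Atp7a rose with TM7nox in RIP but not by the call in RNA. With library totals the LPS values of Mtf1, Slc31a1 and Atp7a in RIP and of Atp7a in RNA were not called, and Atp7a in RIP turned to -0.01.

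Levels were also divided by kb of exon, with all annotated exons of a gene merged. This length exceeds the canonical transcript unevenly, at 12087 against 5197 bases for Slc39a14 and 5663 against 5282 for Slc30a1. The order between genes therefore holds for the merged length only. On it, Mt1 led in each treatment, at 92.6 ± 31.5 CPM per kb in DMSO (SD, n = 4), 367 ± 102 with LPS and 110 ± 24.7 with TM7nox added (SD, n = 4 each). In DMSO the next 7 genes ran from Slc39a10 at 4.31 through Slc31a2 at 4.06, Slc31a1 at 3.36, Atp7a at 2.37, Slc30a1 at 2.06 and Mtf1 at 1.82 to Slc39a14 at 1.56, with neighbours overlapping, and Mt2 was last at 0.223. LPS spread this order out: Slc31a2 came next at 29.5 ± 3.28, followed by Slc39a14 at 8.98 ± 0.804 (SD, n = 4 each), both clear of their neighbours. Mt2 (6.10) and Slc31a1 (6.02) overlapped, as did Slc39a10 (3.63) and Atp7a (3.57), with Mtf1 between these pairs at 4.29 and Slc30a1 last at 1.31. With TM7nox, Slc31a2 again came next at 33.5, Slc31a1 (5.92), Slc39a14 (5.29), Slc30a1 (4.97) and Mtf1 (4.44) overlapped in turn, and then came Atp7a (3.41), Mt2 (3.36) and Slc39a10 (1.62), where neighbours also overlapped. Slc30a1 thus left the last place it had with LPS, and Slc39a10 took it with TM7nox.

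In the anti-HuR libraries, scaled so that the typical gene does not change, the 7 genes that LPS raised in RNA were also called higher with LPS, and none of the 9 was called lower, beside 6090 of 13614 genes called (44.7%). The median log2 fold change of the 9 genes was 0.92, beside 0.0 for all genes. Library totals moved the median of all genes to -0.63 and the split from 3201 higher and 2889 lower to 1299 and 6428, and then 4 of the 9 were called higher (Slc31a2, Slc39a14, Mt1 and Mt2) and 2 lower (Slc30a1 and Slc39a10). Slc31a2 rose 9.05-fold (log2 3.18, SE 0.190), Slc39a14 rose 5.75-fold (log2 2.52, SE 0.166) and Mt1 rose 5.21-fold (log2 2.38, SE 0.232), each with an adjusted p of at most 6.26e-07. Mt2 rose by 4.78 on 7 counts in DMSO and 150 in LPS, and by 5.64 without replicate 4 of DMSO RIP. Mtf1 (0.92), Slc31a1 (0.83) and Atp7a (0.62) were higher by this scaling, and with library totals none of these 3 passed. Library totals gave Mtf1 0.29 (adjusted p = 0.28, in a range of 4.39e-05 to 0.28) and Slc31a1 0.18 (adjusted p = 0.382, in a range of 7.94e-05 to 0.382), and turned Atp7a to -0.01 (adjusted p = 0.959, in a range of 0.000383 to 0.959). Upper-quartile scaling gave Atp7a 0.38 (adjusted p = 0.0971), and replicates 3 and 4 alone gave Atp7a 0.44 (adjusted p = 0.141) and Slc31a1 0.60 (adjusted p = 0.12). Slc30a1 (-0.43, adjusted p = 0.333) and Slc39a10 (-0.33, adjusted p = 0.104) did not pass. With the replicate block they were -0.52 (adjusted p = 0.00925, in a range of 0.00553 to 0.79) and -0.34 (adjusted p = 0.0165, in a range of 0.000254 to 0.396), and both were lower in 4 of 4 pairs. With library totals they were -1.07 (adjusted p = 0.0096) and -0.97 (adjusted p = 0.000254).

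TM7nox with LPS changed 5 of the 9 genes in RIP against LPS, beside 2212 of 13614 genes called (16.2%), a count that the replicate block raised to 4577. Mt1 RIP lay at 123, 123, 132 and 154 CPM in LPS and at 47.3, 31.4, 25.7 and 18.8 in LPS+TM7nox, and the groups did not overlap. The difference was 4.45-fold (log2 -2.15, SE 0.230, adjusted p = 2.23e-05). Slc39a14 was 2.07-fold lower (log2 -1.05, SE 0.159, adjusted p = 0.000402) and Slc30a1 3.62-fold higher (log2 1.86, SE 0.356, adjusted p = 0.00239). These 3 moved the same way as in RNA.

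Atp7a RIP stood at 75.5, 74.0, 77.7 and 67.0 CPM in DMSO, at 119, 133, 113 and 94.3 in LPS, and at 239, 196, 192 and 150 in LPS+TM7nox, with no overlap between the groups on this scale. Scaled by library totals, its mean was 70.4 ± 4.09 CPM in DMSO, 69.8 ± 8.57 with LPS and 115 ± 32.6 after adding TM7nox (SD, n = 4 each). It rose 1.64-fold with TM7nox over LPS (log2 0.71, SE 0.170, adjusted p = 0.0097), in 4 of 4 pairs with ratios of 1.47 to 2.01. Replicates 1 and 2 alone (0.75, adjusted p = 0.0883) and 3 and 4 alone (0.72, adjusted p = 0.0749) kept the value but not the call, in a range of 0.000307 to 0.0883. Slc39a10 RIP was 1.41-fold lower (log2 -0.50, SE 0.161, adjusted p = 0.045), with overlapping groups, and lower in 4 of 4 same-numbered pairs (ratios of 0.692 to 0.804). That call was lost with library totals (-0.49, adjusted p = 0.0813) and in 7 of the 8 fits that left out 1 library, all but the one without replicate 4 of LPS, with values of -0.55 to -0.39 and adjusted p up to 0.244 over all alternatives. Mt2 did not pass (-1.37, adjusted p = 0.0798), but the replicate block gave -1.27 (adjusted p = 0.0333) and DESeq2 -1.36 (adjusted p = 0.0411), in a range of 0.0333 to 0.684. Mtf1 (0.25), Slc31a2 (-0.23) and Slc31a1 (-0.01) did not pass, and Slc31a1 changed sign under several alternatives.

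RIP over RNA compares recovery with anti-HuR with the level in the cells, relative to the typical gene. In DMSO all 9 genes were called, 5 higher and 4 lower, in LPS 8 of 9, 4 higher and 4 lower, and in LPS+TM7nox 9 of 9, 5 higher and 4 lower. Most genes are called in this comparison, with 70.4% of 14311 in DMSO, 63.7% in LPS and 69.9% in LPS+TM7nox, so the counts lie near the background. The split of the 9 genes depended on the scaling: with library totals 3 were called higher and 4 lower in DMSO, 2 and 6 in LPS, and 2 and 5 in LPS+TM7nox. Scaling by library totals moved the median of all genes from 0.04, -0.06 and -0.09 to -0.72, -1.06 and -1.07 in the 3 treatments, and all values below are relative to that shift.

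**Figure D4:**
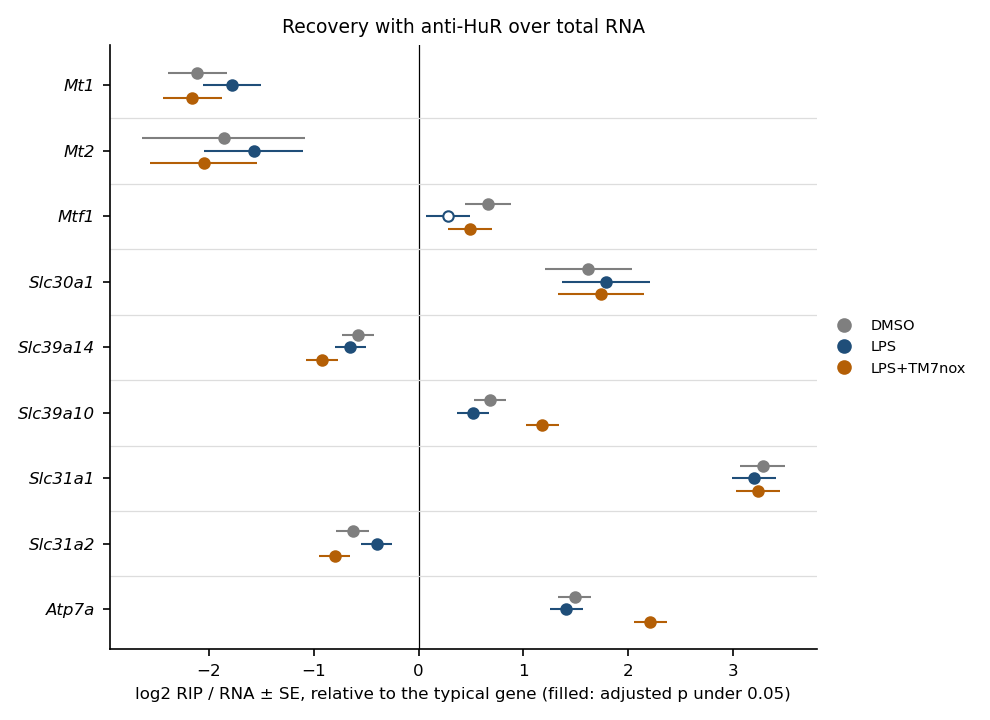
Log2 ratio of anti-HuR RIP over total RNA (points) with its standard error (bars) for the 9 genes in DMSO, LPS and LPS+TM7nox, from 1 edgeR fit of 24 libraries, where 0 is the typical gene. Slc31a1 stood at 3.20 to 3.28, Mt1 at -2.16 to -1.78, and the positive values of Mtf1 in all 3 treatments and of Slc39a10 in DMSO and LPS turned negative with library totals.

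Of the 9 genes, the copper importer Slc31a1 was recovered most. Its RIP libraries held 241, 234, 282 and 215 CPM in DMSO, 425, 525, 501 and 298 in LPS, and 432, 532, 471 and 359 in LPS+TM7nox, all far above its RNA libraries. RIP stood 9.70-fold over RNA in DMSO (log2 3.28, SE 0.211), 9.19-fold in LPS (log2 3.20, SE 0.209) and 9.43-fold in LPS+TM7nox (log2 3.24, SE 0.210), with adjusted p of at most 1.09e-12. The DMSO value was above that of 89.5% of the genes tested. Atp7a stood at 1.49, 1.41 and 2.21 in the 3 treatments, and Slc30a1 at 1.62, 1.79 and 1.74. For Slc30a1, library totals gave 0.77 in LPS (adjusted p = 0.0689) and 0.70 in LPS+TM7nox (adjusted p = 0.0902), which did not pass, in ranges with lowest adjusted p of 4.26e-14 and 8.74e-13.

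Slc39a10 stood at 0.68, 0.52 and 1.18 in the same order, which became -0.09 (adjusted p = 0.57), -0.50 (adjusted p = 0.00396, called lower) and 0.21 (adjusted p = 0.195, not called) with library totals. Without the filter on low counts its calls in DMSO (0.46, adjusted p = 0.0767) and LPS (0.44, adjusted p = 0.103) were also lost, and in replicates 1 and 2 alone that in LPS (0.51, adjusted p = 0.1). Over the alternatives, the adjusted p of Slc39a10 ran from 3.37e-08 to 0.57 for DMSO, from 5.47e-06 to 0.103 for LPS and from 9.81e-22 to 0.195 for LPS+TM7nox. Mtf1 stood at 0.66, 0.28 and 0.49, the second of which was not called (adjusted p = 0.259), and became -0.10, -0.72 and -0.53 with library totals, the last 2 called lower (adjusted p of 0.00109 and 0.0108). The call for Mtf1 in DMSO was lost without the filter (0.45), in replicates 1 and 2 alone (0.42) and without replicate 4 of DMSO RIP (0.50, adjusted p = 0.0551, in a range of 0.000498 to 0.647). Its call in LPS+TM7nox was lost without any 1 of the 4 RNA libraries (0.44 to 0.54) or replicate 4 of RIP (0.31), and with upper-quartile scaling (0.42), no filter (0.31) or replicates 1 and 2 alone (0.33), with adjusted p of 0.00139 to 0.397 over the alternatives. The direction of recovery for these 2 genes therefore turned with the scaling.

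The metallothioneins, Slc39a14 and Slc31a2 were recovered below the typical gene. Mt1 RIP stood 4.31-fold under RNA in DMSO (log2 -2.11, SE 0.280), 3.44-fold in LPS (log2 -1.78, SE 0.276) and 4.47-fold in LPS+TM7nox (log2 -2.16, SE 0.281), with adjusted p of at most 4.13e-06. Mt2 stood at -1.86, -1.57 and -2.05. Its DMSO value rested on 7 RIP counts, became -2.77 without replicate 4 of DMSO RIP, and lost its call without replicate 1, 2 or 3 of DMSO RIP or replicate 2 or 4 of DMSO RNA (-1.89 to -1.44). That call was also lost by DESeq2 (-1.69, adjusted p = 0.0958), with DESeq2 size factors (-1.67, adjusted p = 0.0563) and in either pair of replicates (-2.30 and -1.54), with adjusted p of 0.0033 to 0.221 over the alternatives. Slc39a14 stood at -0.58, -0.65 and -0.92. Slc31a2 stood at -0.63, -0.40 and -0.80, and its LPS call was lost without replicate 2 of LPS RNA (-0.33, adjusted p = 0.0845) or replicate 4 of LPS RIP (-0.34, adjusted p = 0.0518). It was also lost by DESeq2 (-0.22, adjusted p = 0.35), with DESeq2 size factors (-0.22, adjusted p = 0.178), with no filter (-0.47, adjusted p = 0.076) and in replicates 1 and 2 alone (-0.34, adjusted p = 0.294), in a range of 5.1e-08 to 0.35. Replicates 1 and 2 alone also lost the calls of Slc39a14 (-0.46) and Slc31a2 (-0.66) in DMSO and of Mt2 in LPS (-1.54) and LPS+TM7nox (-1.26).

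The IgG libraries, 1 per treatment and all replicate 3, give the background of the beads. In DMSO, LPS and LPS+TM7nox they held 23.5, 48.1 and 37.5 CPM of Slc31a1, 26.4, 49.0 and 44.2 of Atp7a, 7.72, 5.02 and 19.2 of Slc30a1, and 79.6, 343 and 63.1 of Mt1. Scaled by library totals, they held 42.7, 61.4 and 49.1 CPM of Slc31a1 and 48.0, 62.5 and 57.9 of Atp7a. Slc30a1 then stood at 14.0, 6.4 and 25.1 CPM and Mt1 at 145, 437 and 82.7. The changes of Mt1 and Slc30a1 between treatments were thus also seen in RNA that came down with IgG. Over the 3 treatments, anti-HuR against IgG called 7 of the 9 genes, 4 higher and 3 lower, beside 10194 of 14973 genes (68.1%). Slc31a1 stood 10.2-fold over IgG (log2 3.35, SE 0.218, adjusted p = 1.52e-10), Slc30a1 4.74-fold (log2 2.25, SE 0.347, adjusted p = 1.11e-05) and Atp7a 2.95-fold (log2 1.56, SE 0.194, adjusted p = 6.73e-07).

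Slc39a10 stood 1.35-fold over IgG (log2 0.43, adjusted p = 0.0175), a call lost without the IgG library of DMSO (0.43, adjusted p = 0.0655) or of LPS+TM7nox (0.30, adjusted p = 0.16), in a range of 0.000356 to 0.16. Library totals moved the median of all genes to -1.02 and turned Slc39a10 to -0.60 (adjusted p = 0.00171), called lower than IgG. Relative to the typical gene, Mt2 (-2.20), Mt1 (-1.38) and Slc39a14 (-0.59) were lower with anti-HuR than with IgG, with adjusted p of at most 0.000618. The amounts of RNA that came down were not measured. Mtf1 (0.45, adjusted p = 0.0703) and Slc31a2 (-0.28, adjusted p = 0.108) did not pass. DESeq2 and 8 other alternatives called Mtf1 higher, 5 of them fits without 1 library (0.45 to 0.64), whereas library totals called it lower at -0.60 (adjusted p = 0.00894), in a range of 0.00894 to 0.299. The direction against IgG of Mtf1 and Slc39a10 therefore turned with the scaling. Library totals also called Slc31a2 lower (-1.31, adjusted p = 4.88e-07, in a range up to 0.568), and kept Slc31a1 (2.31), Slc30a1 (1.19) and Atp7a (0.54, adjusted p = 0.0138, in a range from 1.54e-21) higher. Anti-HuR was not tested against IgG within a treatment.

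Whether recovery itself changed was tested as the interaction of assay and treatment. For LPS against DMSO no member passed by edgeR, 0 had an unadjusted p under 0.05 and DESeq2 called 0, beside 6 of 14311 genes called by edgeR (0.0419%). The 9 values lay between -0.38 (Mtf1) and 0.33 (Mt1), with adjusted p of at least 0.853. For LPS+TM7nox against LPS no member passed by edgeR either, 2 had an unadjusted p under 0.05 and DESeq2 called 0, beside 1 gene in all (0.00699%). Atp7a had a value of 0.80 (SE 0.218, unadjusted p = 0.00113, adjusted p = 0.871) and Slc39a10 one of 0.67 (SE 0.219, unadjusted p = 0.00543, adjusted p = 0.871). With the replicate block, which called 2 genes in all, Atp7a had 0.80 (adjusted p = 0.258) and Slc39a10 had 0.68 (adjusted p = 0.294), the lowest adjusted p of their 24 alternatives. The other 7 lay between -0.48 (Mt2) and 0.21 (Mtf1). The rise of Atp7a in RIP and the absence of a called rise in RNA are therefore not shown to differ after adjustment.

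The 3′ UTRs of the 9 genes ran from 134 to 5457 bases. Mt1 (134 bases), Mt2 (152 bases) and Slc31a2 (1269 bases) held no AUUUA. The other 6 were 2970 to 5457 bases long and held 4 to 8 pentamers: Slc39a14 held 4, Mtf1 and Atp7a held 5, Slc30a1 and Slc31a1 held 6 and Slc39a10 held 8. Among 10996 tested genes with a 3′ UTR of at least 50 bases, the median length was 1354 bases, the median number was 2, and 73.5% held at least 1.

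Over those genes the median log2 RIP over RNA in DMSO was -0.80 with no AUUUA (2910 genes), -0.34 with 1 to 3 (4408 genes) and 0.61 with 4 or more (3678 genes). It was -0.69, -0.30 and 0.43 in LPS and -0.91, -0.41 and 0.60 in LPS+TM7nox. The 3 members without the pentamer were below 0 in each treatment, and so was Slc39a14, which held 4. The 5 with 5 to 8 pentamers were above 0, of which Mtf1 and Slc39a10 turned with the scaling, as given above. The part of 3′ UTR length in these values was not tested.

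**Figure D5:**
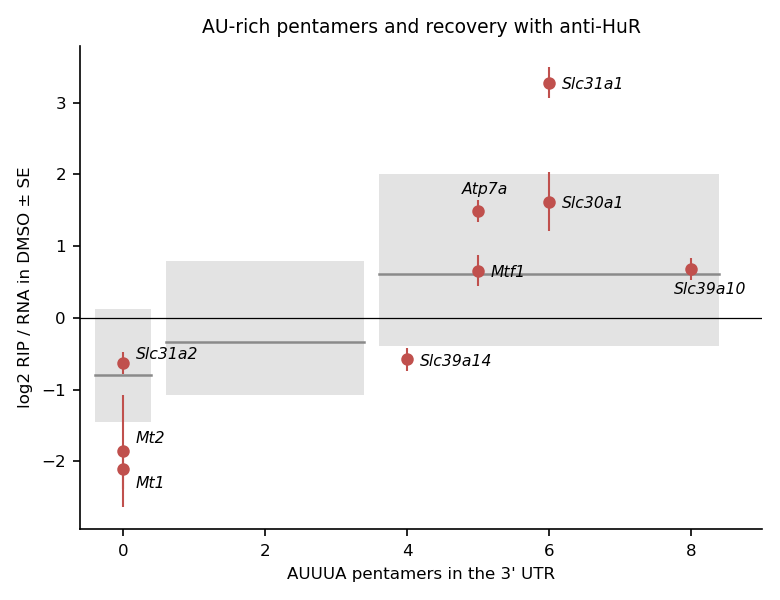
Number of AUUUA pentamers in the 3′ UTR against log2 RIP over RNA in DMSO (points, with standard error bars) for the 9 genes; grey bands span the lower to upper quartile of all genes with 0, 1 to 3, or 4 or more pentamers, with the median as a grey line. Slc31a1 at 3.28 lies highest and Mt1 at -2.11 lowest, and the positive values of Mtf1 and Slc39a10 turned negative with library totals.

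Other genes of metal handling were read from lists of the families, beside 42.0% of all genes called with LPS and 13.8% with TM7nox over LPS. Neither Mt3 nor Mt4 reached the filter, with 1, 3 and 11 counts of Mt3 in DMSO, LPS and LPS+TM7nox RNA and 0 of Mt4. Of 9 other ZnT genes 5 were tested. LPS raised Slc30a7 (0.96) and Slc30a6 (0.51), which load zinc into the secretory pathway, and lowered Slc30a5 (-0.72), whose product pairs with that of Slc30a6, with a median of 0.28 over the 5. With TM7nox none of the 5 passed by edgeR, 0 had an unadjusted p under 0.05 and DESeq2 called 0, with a median of 0.11.

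Of 12 other ZIP genes 10 were tested. LPS raised Slc39a2 (2.84) and Slc39a1 (0.92) and lowered none by the call, with a median of -0.04. TM7nox with LPS raised 3 and lowered 2, with a median of 0.33. The importer gene Slc39a4 rose by 2.56 (SE 0.402, adjusted p = 0.000814) and Slc39a2 by 1.79 (SE 0.352, adjusted p = 0.00371), both from low levels of 0.335 ± 0.1 and 2.19 ± 0.981 CPM in LPS to 1.98 ± 0.0778 and 7.60 ± 1.32 CPM (SD, n = 4 each). Slc39a13 (-0.82) and Slc39a1 (-0.44) were lower, the latter with a call that was lost without replicate 1 or 3 of LPS or replicate 2 or 4 of LPS+TM7nox (-0.44 to -0.39, with adjusted p of 0.00145 to 0.413 over 16 alternatives).

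Of 15 other copper genes 11 were tested, and LPS raised 2 and lowered 1 (3 of 11, beside 42.0% of all genes), with a median of 0.12. The plasma copper oxidase gene Cp rose by 3.19 with LPS (SE 0.460, adjusted p = 7.31e-05) and was lower by 1.79 with TM7nox (log2 -1.79, SE 0.418, adjusted p = 0.0109), at 1.52 ± 1.14 CPM in DMSO, 15.6 ± 6.51 with LPS and 4.49 ± 1.19 with TM7nox added (SD, n = 4 each). The metalloreductase gene Steap4 had 0 counts in DMSO and 81 in LPS, which is at least 24.5-fold higher against a floor of 3 counts over the group, and 14 counts in LPS+TM7nox. Its relative Steap3 was lower in LPS (-2.36, adjusted p = 4.37e-05). Cp was the 1 of the 11 called with TM7nox, and their median there was -0.06.

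Of 11 genes of metal and oxidant stress 10 were tested, and LPS raised 7 and lowered 1, with a median of 0.54. The cystine importer gene Slc7a11 (2.65) and the heat shock gene Hspa1b (1.80) rose most, and Gclc, for the catalytic subunit of glutathione synthesis, was lower (-1.79). TM7nox with LPS raised 7 and lowered none by the call, with a median of 1.70 beside 0.0 for all genes. Hmox1, the haem oxygenase gene, stood at 57.0 ± 11.8 CPM in DMSO, 98.5 ± 27.9 with LPS and 1020 ± 212 with TM7nox added (SD, n = 4 each), a log2 change of 3.38 with TM7nox (SE 0.235, adjusted p = 1.41e-06). Nqo1, a quinone reductase gene, rose by 4.74 on 5 counts in LPS and 128 with TM7nox, and by 6.43 without replicate 1 of LPS. In replicates 1 and 2 alone the calls were lost for Slc30a6 (0.57), Slc30a5 (-0.60), Slc39a2 (2.68) and Steap4 with LPS, and for Slc39a4 (2.64), Slc39a2 (1.63), Slc39a13 (-0.88), Slc39a1 (-0.50), Cp (-1.61) and Nqo1 (4.16) with TM7nox. Without the filter on low counts they were lost for Slc30a6 with LPS (0.56) and Slc39a1 with TM7nox (-0.44), as they were with library totals (0.23 and -0.48). Hspa1b (0.23, adjusted p = 0.688), Hsph1 (0.32, adjusted p = 0.09) and Dnajb1 (-0.20, adjusted p = 0.46) did not pass with TM7nox. The 7 stress genes called higher moved beside the lower Mt1 and the higher Slc30a1, and their part in either was not tested.

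Likeness to other genes was described by Pearson r of log2 CPM over the 12 RNA libraries, among 8619 genes (8620 for Mt2). Mt1 was most like P2ry6 (0.952), Tnip3 (0.949) and Fhl3 (0.941), and Mt2 most like Cdc42ep2 (0.976), Slc12a4 (0.975) and Nrbp1 (0.974). Mtf1 was most like Gpr84 (0.989), Ywhag (0.988) and Csf1 (0.988). Slc30a1 was most like Lrif1 (0.936), Trnt1 (0.93) and Amz2 (0.911). For Slc39a14 the leading genes were Upp1 (0.992), Mmp14 (0.99) and Lyn (0.99), and for Slc39a10 they were Polr2l (0.98), Eml4 (0.971) and Nrros (0.971). For Slc31a2 they were Casp4 (0.995), Ifi203 (0.994) and Tnfrsf1b (0.993), for Slc31a1 Rbpj-ps3 (0.977), Aph1a (0.965) and Psmd10 (0.964), and for Atp7a Zfp719 (0.932), Rbm7 (0.93) and Ext1 (0.917). The libraries share 3 treatments and their replicate numbers, so these values are descriptions.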

How the data were processed

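Total RNA, anti-HuR RIP and IgG libraries were assigned to treatments by the labels, and same-numbered libraries to replicates. The authors deposited 1 table of raw counts, whole reads per Ensembl gene and library with no normalization. Per the labels' protocols, the kit was SMART-Seq Stranded. The submitters' processing notes name FastQC 0.11.9, STAR, HTSeq, DESeq2 and GRCm39. Neither strand setting nor annotation release is given in the sources used here, so reads where genes overlap may belong to either gene, and PCR copies were not told apart.

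The 9 genes and the other lists were chosen with earlier results of these data known. The rule for named genes takes all 9, up to 2 called genes per direction of each list, and the 3 most alike genes with a mean of at least 5 CPM and no predicted symbol. The tests of the counts used edgeR 4.0.16 (R 4.3.3), with TMM scaling, filterByExpr with a minimum count of 10, two-sided quasi-likelihood F tests and Benjamini-Hochberg adjustment over all genes tested. The 12 RNA libraries, the 12 RIP libraries, both together (24, for RIP over RNA and interactions) and the 15 RIP and IgG libraries (treatment as covariate) were 1 fit each. DESeq2 1.42.0, other scalings (library totals for comparisons other than RIP over RNA were added after seeing the data), no filter, the replicate block, replicates 1 and 2 or 3 and 4 alone and leaving out each library were alternatives. The procedure was tested on simulated counts with the same spread for every gene and no effect of the replicate number, so that test does not cover these features of the data. TMM assumes that most genes are at equal levels, so RIP over RNA and anti-HuR against IgG have no absolute scale. CPM values use 1 TMM scale over the 27 libraries.

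Same-numbered libraries deviated together (r of 0.194 to 0.548 in every pair of the 8 comparisons between 2 groups, and of at least 0.161 for the interaction with TM7nox), so the numbers were taken as pairs there. No replicates agreed within sampling noise: chi-square per gene was 38.0 to 213 over 36 pairs. Library totals ran from 2.73 to 41.4 M counts, and genes under 10 counts per library are uncertain. Of the gene identifiers, 93.2% matched GENCODE M39 on GRCm39. Promoters are from RefSeq (GRCm38.p6) and were placed on GRCm39 by exact match with Biopython 1.88.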

Additional observations from a re-analysis of the deposited data

Results flagged for a closer look

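Within groups of 4 libraries, 3 of 54 had 1 library whose gap to the nearest other, as a share of the group's range, exceeded Dixon's critical value for 4 samples. Chance gives about 1 in 20 such groups. Slc30a1 in DMSO total RNA had replicate 2 at 19.1 CPM (gap 0.854). In LPS+TM7nox total RNA Slc30a1 had replicate 2 at 47.9 CPM (gap 0.83). Slc39a14 in LPS total RNA had replicate 2 at 123 CPM (gap 0.9). The 3 libraries all carry replicate number 2. For Slc30a1 the same number was the highest in the other RNA and RIP groups too, and the TM7nox rise was seen in 4 of 4 same-numbered pairs.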

How the results depend on the processing

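The 115 single-gene results were recomputed under 1930 alternatives in all, of which 1792 kept direction and call, 86 lost the call, 30 gained it and 22 changed sign. Library totals were planned for RIP over RNA and for the levels, and added for the other comparisons after the data were seen. Of 81 group levels in CPM, 19 stayed within the group's SD with library totals. The single IgG libraries have no SD and are not among these. Sign changes with library totals in RIP over RNA were those of Mtf1 (-0.10 in DMSO, -0.72 in LPS, -0.53 in LPS+TM7nox) and Slc39a10 (-0.09 in DMSO, -0.50 in LPS), and against IgG those of Mtf1 (-0.60) and Slc39a10 (-0.60). They also turned Atp7a with LPS in RIP (-0.01) and Mt1 in LPS+TM7nox against DMSO RNA (-0.09). For TM7nox against LPS in RNA, Mtf1 became -0.01 in replicates 3 and 4 alone and Slc31a1 0.07 in replicates 1 and 2 alone. Leaving out 1 library gave Slc31a1 -0.08 to 0.04 and Atp7a -0.17 to 0.03 there. In RIP the same comparison gave Slc31a1 0.01 with the replicate block, 0.05 in replicates 3 and 4 alone and -0.15 to 0.11 without 1 library. Mt1 in LPS+TM7nox against DMSO RNA became -0.25 in replicates 3 and 4 alone.

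Genes called in RNA, LPS against DMSO, numbered 1668 in replicates 1 and 2 alone, which hold the library of 2.73 M counts, and 4427 to 5585 without 1 library. For LPS+TM7nox against LPS they were 3091 with the replicate block, 168 in replicates 1 and 2, 3489 in replicates 3 and 4 and 1199 to 1605 without 1 library. Against DMSO they were 2246 in replicates 1 and 2 and 5131 to 6209 without 1 library. In RIP, LPS called 3392 in replicates 1 and 2 and 5145 to 6294 without 1 library, and TM7nox called 4577 with the block, 789 in replicates 1 and 2, 1070 in replicates 3 and 4 and 1495 to 2210 without 1 library. Pairs of replicates have fewer samples. The interaction with LPS called 49 without the filter, 50 with the block, 0 in replicates 1 and 2 alone, 13 in replicates 3 and 4, 67 by DESeq2, 27 with library totals and 4 to 11 without 1 library. The interaction with TM7nox called 2 with upper-quartile scaling or library totals, 5 without the filter, 2 with the block, 0 in either pair of replicates, 3 by DESeq2 and 1 to 3 without 1 library; the cause was not tested. The lowest r between same-numbered libraries was 0.0566 for the interaction with LPS, so the numbers were not taken as pairs there.

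Of the 9 genes, replicates 1 and 2 alone called 1 for TM7nox in RNA (4 to 5 without 1 library), 3 in RIP, as did replicates 3 and 4 (4 to 5), and 5 in RIP over RNA in both DMSO (8 to 9) and LPS (7 to 8). The replicate block changed no member's call besides those given with the results of Slc30a1, Slc39a10 and Mt2. Library totals turned the split of higher to lower calls in RIP over RNA from 5300 to 4775 into 3776 to 7113 in DMSO, from 4708 to 4401 into 2833 to 8134 in LPS and from 5031 to 4975 into 3324 to 7903 in LPS+TM7nox. Against IgG the split went from 5067 to 5127 into 2903 to 8357, and in RNA of LPS+TM7nox against DMSO from 2926 to 2924 into 1862 to 4560. Upper-quartile scaling turned RIP with LPS from 3201 and 2889 into 2245 and 4060, with a median of all genes of -0.25.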

Other observations

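Recovery with anti-HuR was also read for the other metal genes, as log2 RIP over RNA relative to the typical gene, with calls by edgeR's quasi-likelihood test in DMSO, where 70.4% of all genes tested were called, so that the counts below lie near or below the background. The zinc transporter genes Slc30a4 (2.41, SE 0.258) and Slc30a9 (1.92, SE 0.210) were called higher, and 3 of the 5 ZnT genes tested were higher and 0 lower (2 and 2 with library totals). Among 10 ZIP genes 3 were higher and 3 lower (2 and 5 with library totals), led by Slc39a1 (3.71, SE 0.202) and Slc39a6 (-1.75, SE 0.220). Among 11 copper genes 2 were higher and 4 lower (1 and 7 with library totals). Sco1, which delivers copper to cytochrome c oxidase, stood at 3.47 (SE 0.225), while the copper chaperone gene Atox1 stood at -1.87 (SE 0.245) and the copper enzyme gene Sod1 at -1.65 (SE 0.189). Slc39a1 and Sco1 kept these high values in LPS (3.73 and 4.04) and in LPS+TM7nox (4.01 and 4.06), and against IgG they stood at 4.06 and 3.86. These 7 named genes kept their direction and call under each of the 16 alternatives in DMSO, library totals included.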
